A study of Homo sapiens with 16 samples.

Results

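The genes described here are 10 regulators of the ATF4 and CHOP stress pathway: the transcription factors ATF4, ATF3, DDIT3 (the gene of CHOP), CEBPB and CEBPG, and the pathway's effectors TRIB3, CHAC1, SESN2, DDIT4 and PPP1R15A. They were chosen by symbol, with no threshold on their values, as 10 of the 23228 genes counted, and all 10 were among the 13948 genes that passed the low-count filter. The choice was made with earlier results of these data known. RNA was sequenced from MDA-MB231, an established human breast cancer cell line, grown in DMEM with 10% serum. The groups were vehicle (DMSO), the DNA-alkylating agent methyl methanesulfonate (MMS), the kinase inhibitor sorafenib at 1 µM, and a combination in which 12 h of sorafenib preceded MMS. Each was collected at 8 h and at 24 h, which made 8 groups of 2 libraries from 2 independent experiments. The dose of MMS is written as 40 µM in the sample labels and as 40 µg/mL in the series text, and these are not the same amount. In the combination, time ran from the addition of MMS, so those cells had been in sorafenib for 12 h longer than the cells given sorafenib alone.

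ATF4 is the transcription factor of the integrated stress response. Kinases that sense misfolded protein, amino acid shortage, viral RNA or lack of heme phosphorylate the initiation factor eIF2 on its alpha subunit, which lowers general translation and favours translation of the ATF4 mRNA. ATF4 then pairs with C/EBP family proteins on DNA composite elements that join an ATF site to a C/EBP site, and switches on genes for amino acid supply, redox balance and, through CHOP, cell death. PPP1R15A closes the loop by bringing protein phosphatase 1 to eIF2. Because ATF4 is governed largely at translation, its mRNA level is not a measure of ATF4 protein, and no protein was measured.

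The DNA elements named above can be read near the start sites of some members. Promoter windows of RefSeq (build GRCh38.p14), 250 bases before to 50 after each start, were searched on both strands, with 17 windows matching the 10 members. The composite element TGATGNAAN lay in 3 of the 17 member windows (of ATF3, CEBPG and CHAC1) and in 3.61% of all 35116 windows of the same length. Its form TGATGCAA lay in 2 of the 17 (of CEBPG and CHAC1) and in 0.866% of all windows. The full cyclic AMP element TGACGTCA lay in the window of PPP1R15A and in 1.85% of all windows. The shorter TGACG, which overlaps the full element, lay in 4 of the 17 (of ATF4, CEBPB and PPP1R15A) and in 24.6% of all windows, a similar share. The 4 sites below show the longer matches in capitals, 5′ to 3′ on the strand of the gene. In CHAC1 the match is on the opposite strand, so it reads TTGCATCA here.
CHAC1, chr15:40953251-40953280: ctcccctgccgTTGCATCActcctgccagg
CEBPG, chr19:33374060-33374089: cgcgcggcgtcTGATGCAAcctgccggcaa
ATF3, chr1:212565206-212565235: aaggtcaggaTGATGGAAGgctgtcatatt
PPP1R15A, chr19:48872352-48872381: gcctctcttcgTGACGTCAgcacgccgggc
These are matches of letters before an annotated start, not measured binding.

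The libraries held between 16774156 and 26448212 reads assigned to genes. Mesenchymal markers of this line (VIM, CD44, AXL, ZEB1) summed to 3144 to 4903 CPM. CPM, the unit of every level below, is a gene's count scaled to the same total of gene counts in every library. The estrogen receptor ESR1 was at 0 to 0.224 CPM and the progesterone receptor PGR at 0.151 to 0.674 CPM. The 7 luminal markers, which include these receptors, summed to 178 to 407 CPM, of which KRT19 gave 94.7 to 302 CPM and ERBB2 56.9 to 100 CPM. Also in that list were EPCAM (8.86 to 19.3 CPM), GATA3 (4.65 to 10.7 CPM) and CDH1 (0.241 to 9.34 CPM). The 3 blood markers summed to at most 1.40 CPM and the 3 fibroblast markers to at most 30.9 CPM. Some of these sums moved with MMS. The mesenchymal sum was 4318 to 4903 CPM in the 8 h DMSO libraries and 3271 to 3837 CPM with MMS, and 4131 to 4652 against 3305 to 3634 CPM at 24 h. The 2 endothelial markers summed to 2.87 to 4.35 CPM in DMSO and 1.16 to 1.36 CPM with MMS at 8 h, and to 7.67 to 8.16 against 0.811 to 1.38 CPM at 24 h. The fibroblast sum at 8 h was 11.4 to 14.2 CPM in DMSO and 6.93 to 7.37 CPM with MMS. At 24 h it was 20.5 to 21.1 CPM in DMSO and 9.97 to 13.5 CPM with MMS. The part of these markers in the members' results was not tested. In such bulk RNA, fewer cells with a transcript and less of it per cell cannot be told apart. Replicate 1 and replicate 2 below are the libraries with each of the 2 title beginnings, and values are given in that order.

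MMS raised every member at 8 h. All 10 were called higher than in DMSO by edgeR's quasi-likelihood test at a Benjamini-Hochberg adjusted p under 0.05, against 14.5% of all genes tested called higher and 12% called lower. The median log2 change was 1.97 over the members and −0.0042 over all genes tested. Because the members were chosen with earlier results of these data known, such shares describe them and are not an independent test. In each of the 10 genes both MMS libraries lay above both DMSO libraries. With 2 libraries a group such separation can arise without a change, and its share over all genes was not counted, here or below. The rise ran from 2.41-fold for CEBPB to 11.4-fold for ATF3.

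Among the transcription factors, ATF4 stood at 166 and 139 CPM in DMSO and at 407 and 358 CPM after MMS. Its rise was 1.36 ± 0.17 on the log2 scale (SE, edgeR adjusted p = 0.000139). ATF3, a stress-induced factor of the ATF family and a known ATF4 target, went from 6.498 and 8.52 CPM to 84.6 and 83.7 CPM. That change of 3.52 ± 0.23 (edgeR adjusted p = 1.78e-06) was the largest of the 10, and the 2 MMS libraries nearly coincided. DDIT3, which encodes CHOP, went from 14.0 and 17.9 CPM to 63.8 and 70.1 CPM, a log2 change of 2.10 ± 0.18. The DDIT3 value has a limit of its own, because in the GENCODE annotation its exons overlap those of MARS and MBD6 on the opposite strand and of AC022506.1 on the same strand, and the strand setting of the counting is not given in the sources used here.

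CEBPG and CEBPB supply partners with which ATF4 and CHOP can dimerize. CEBPG stood at 74.4 and 89.2 CPM in DMSO and at 237 and 229 CPM after MMS, a log2 change of 1.55 ± 0.10. CEBPB went from 42.1 and 47.3 CPM to 92.2 and 118 CPM, a change of 1.27 ± 0.14, the smallest of the 10. CEBPB has an annotated antisense gene, so its counts carry the same limit as those of DDIT3.

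The effectors rose over a similar span. TRIB3, a pseudokinase that binds ATF4 and CHOP and restrains them, went from 43.9 and 49.8 CPM to 246 and 243 CPM (log2 change 2.42 ± 0.14). CHAC1, an enzyme that breaks down glutathione, went from 9.06 and 7.44 CPM to 78.5 and 81.3 CPM (log2 change 3.32 ± 0.33). SESN2, a leucine sensor that restrains the growth kinase complex mTORC1, went from 12.9 and 12.7 CPM to 105 and 102 CPM. With a log2 change of 3.05 ± 0.12 it had the smallest p of the members (edgeR adjusted p = 1.67e-07).

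DDIT4, also called REDD1, restrains mTORC1 by another route, through the TSC complex. It went from 84.8 and 72.2 CPM to 197 and 177 CPM, a log2 change of 1.29 ± 0.21 (edgeR adjusted p = 0.000653). DDIT4 has an annotated antisense gene as well. PPP1R15A, the feedback phosphatase subunit, went from 202 and 249 CPM to 743 and 831 CPM, a log2 change of 1.84 ± 0.20. For the 8 h comparison the adjusted p of every member was at most 0.000653.

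**Figure D1:**
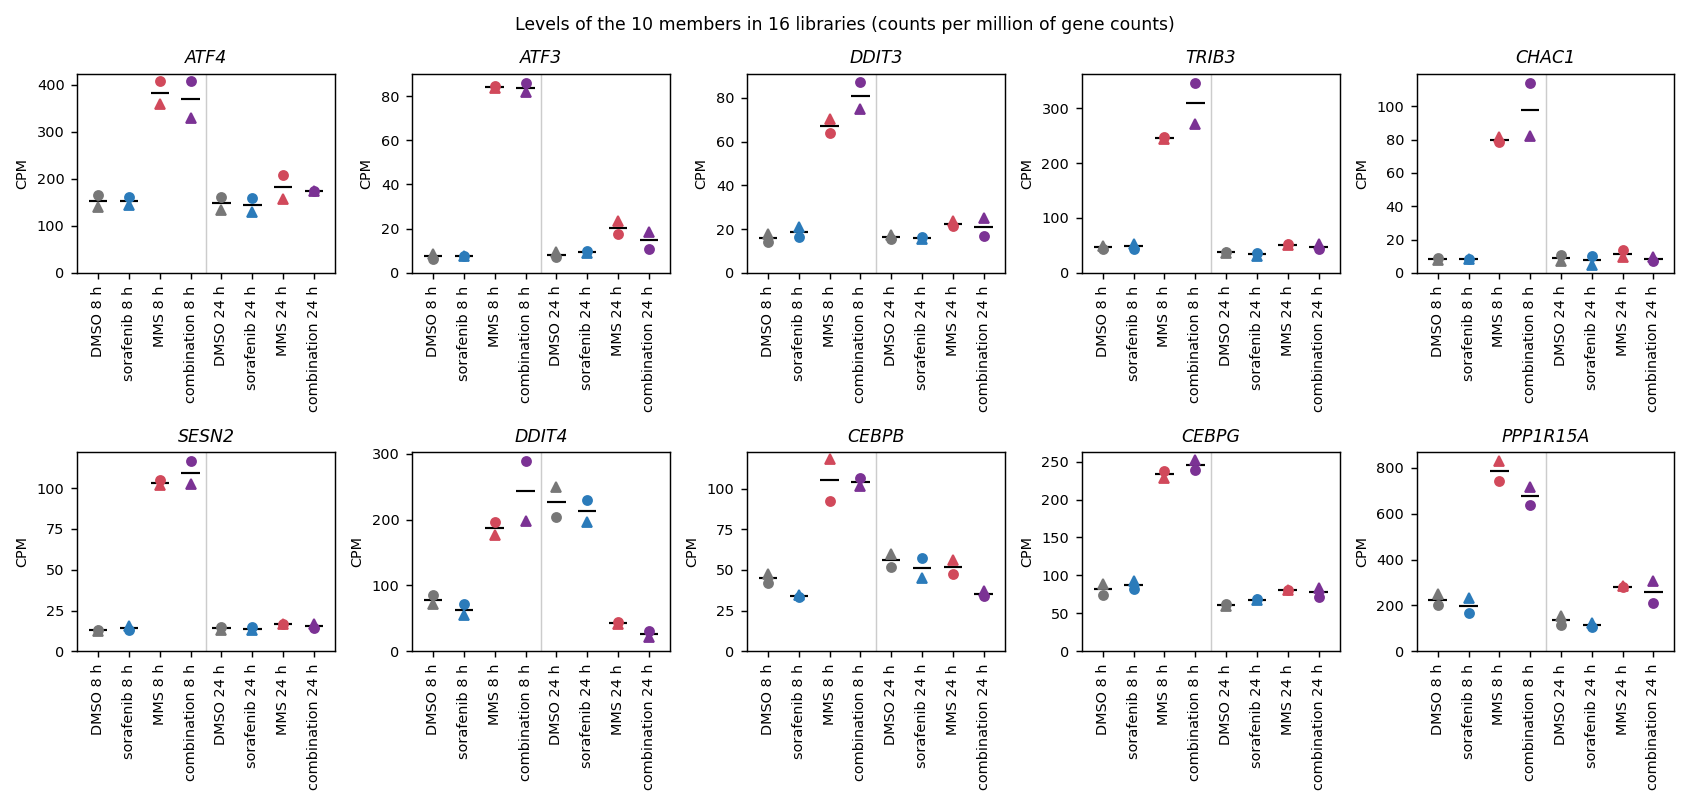
Level of each member in CPM (vertical axis, linear, from 0) in the 16 libraries, by group at 8 h (left of the grey line) and 24 h (right). Circles are replicate 1, triangles replicate 2 and bars the mean of the 2. The 8 h MMS and combination libraries lie above all other groups in 9 panels, while in DDIT4 the untreated 24 h libraries reach 203 and 250 CPM and the 24 h MMS libraries lie at 44.6 and 42.1 CPM.

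At 24 h the members no longer moved together. 4 of 10 were called higher than DMSO, where 15.2% of all genes tested were called higher, and 1 was called lower, where 16.3% were. The members' median log2 change was 0.35, against 0.0033 over all genes tested. ATF3 and PPP1R15A stayed clearly raised, CEBPG and TRIB3 slightly, and DDIT4 fell far below its control.

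ATF3 stood at 7.21 and 9.26 CPM in the 24 h DMSO libraries and at 17.4 and 23.5 CPM after MMS, a log2 change of 1.26 ± 0.23 (edgeR adjusted p = 0.00157). PPP1R15A stood at 116 and 153 CPM in DMSO and at 281 and 283 CPM after MMS, a change of 1.02 ± 0.20 (edgeR adjusted p = 0.00224). In both genes the 2 groups were well apart. CEBPG, at 62.8 and 60.2 CPM in DMSO and 80.8 and 81.1 CPM after MMS, differed by 0.34 ± 0.10 (edgeR adjusted p = 0.0192). TRIB3, at 38.8 and 36.7 CPM in DMSO and 52.2 and 50.9 CPM after MMS, differed by 0.40 ± 0.14 (edgeR adjusted p = 0.0460). With the replicate block both of the last 2 were called (blocked edgeR adjusted p = 0.00314 for CEBPG and 0.0126 for TRIB3). In the unblocked fit these 2 calls were fragile. TRIB3 missed the threshold without any 1 of the 4 libraries compared (edgeR adjusted p from 0.0797 to 0.177), and CEBPG missed it without MMS replicate 1 (0.0749) or DMSO replicate 2 (0.0838).

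DDIT4 moved the other way. Its DMSO libraries stood at 203 and 250 CPM and its MMS libraries at 44.6 and 42.1 CPM, a 5.42-fold lower level (log2 change −2.44 ± 0.22, edgeR adjusted p = 2.41e-05). Both quantities had changed since 8 h, the control upward and the MMS level downward.

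The other 5 members gave no call at 24 h. SESN2 was at 15.1 and 13.2 CPM in DMSO and at 16.9 and 17.0 CPM after MMS, back near its control with groups that did not overlap (log2 change 0.20 ± 0.12, edgeR adjusted p = 0.232). CHAC1 was at 10.5 and 6.87 CPM against 13.9 and 9.27 CPM, with overlapping groups (0.36 ± 0.33, edgeR adjusted p = 0.443). CEBPB was at 51.7 and 60.0 CPM against 47.2 and 56.1 CPM (−0.17 ± 0.14, edgeR adjusted p = 0.392). ATF4 was at 162 and 134 CPM against 208 and 157 CPM, where replicate 2 of MMS lay below replicate 1 of DMSO. Its log2 change was 0.25 ± 0.17 (edgeR adjusted p = 0.293), and within each title beginning MMS was above DMSO. DDIT3 was at 15.3 and 17.2 CPM against 21.3 and 23.5 CPM (0.41 ± 0.18, edgeR adjusted p = 0.104). With the replicate block, which compares libraries within each title beginning, ATF4 (blocked edgeR adjusted p = 0.0221) and DDIT3 (0.0269) were called too, which gave 6 members higher and 1 lower. The block called 6730 of 13948 genes tested in either direction, against 4394 without it.

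**Figure D2:**
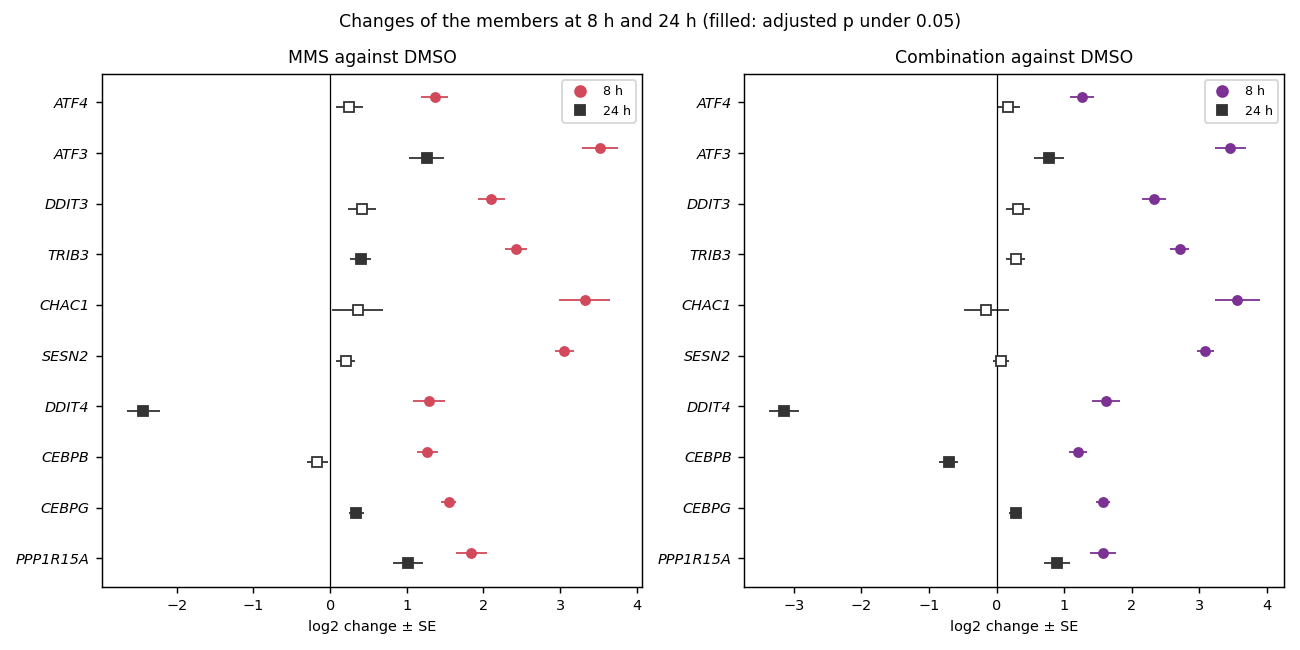
log2 change of each member against DMSO of the same time, for MMS (left) and the combination (right), at 8 h (coloured circles) and 24 h (dark squares), with bars of 1 SE from edgeR. Filled symbols have an adjusted p under 0.05. All 8 h circles lie right of 0, and at 24 h DDIT4 lies at −2.44 with MMS and −3.15 with the combination.

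The difference between the MMS effect at 24 h and that at 8 h was tested directly. It was below 0 in all 10 members and was called lower in 9, where 5.6% of all genes tested were called lower and 3.53% higher. The median difference was −1.86 over the members and −0.030 over all genes tested. DDIT4 had the largest, −3.73 ± 0.30 (edgeR adjusted p = 6.13e-05), followed by CHAC1 at −2.96 ± 0.46 and SESN2 at −2.85 ± 0.17. ATF3 (−2.26 ± 0.32), TRIB3 (−2.03 ± 0.19) and DDIT3 (−1.69 ± 0.26) were intermediate. CEBPB differed by −1.43 ± 0.20 and CEBPG by −1.20 ± 0.14.

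ATF4 itself differed by −1.11 ± 0.24 (edgeR adjusted p = 0.0150, blocked 2.35e-06). In the unblocked fit that call was lost without 1 of 4 single libraries. Those were DMSO 24 h replicate 1 (0.0551), MMS 8 h replicate 1 (0.0573), DMSO 8 h replicate 2 (0.0591) and MMS 24 h replicate 2 (0.0700). PPP1R15A showed the smallest difference, −0.82 ± 0.27 (edgeR adjusted p = 0.0843). With the replicate block it was called as well (−0.81 ± 0.14, blocked edgeR adjusted p = 0.000432), so that all 10 were called lower. The block called 3561 of 13948 genes tested in either direction, against 1273 without it. DESeq2 gave PPP1R15A an adjusted p of 0.0276.

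These differences rest on the vehicle levels as well as on the treated ones, and the DMSO level of some members differed between the times. DDIT4 rose from 84.8 and 72.2 CPM at 8 h to 203 and 250 CPM at 24 h, a log2 change of 1.499 ± 0.21 (edgeR adjusted p = 0.0241, blocked 4.29e-06). It was the 1 member called higher, where 0.366% of all genes tested were, and none was called lower, where 0.294% were. That call was lost without DMSO 8 h replicate 1 (0.114), DMSO 8 h replicate 2 (0.180) or DMSO 24 h replicate 2 (0.155), although both 24 h libraries were far above both 8 h libraries.

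PPP1R15A went in DMSO from 202 and 249 CPM to 116 and 153 CPM, a log2 change of −0.78 ± 0.20 that was called with the replicate block (blocked edgeR adjusted p = 0.000267) and not without it (0.0830). CEBPG went from 74.4 and 89.2 CPM to 62.8 and 60.2 CPM, a change of −0.44 ± 0.10 that was likewise called with the block (0.00347) and not without it (0.0640). DESeq2 without a block called both lower. Over all 13948 genes tested, the block called 1902 in either direction and DESeq2 489, against 92 in the unblocked edgeR fit. Unadjusted, 4 members had an edgeR p under 0.05 in this comparison, as did 2257 of all genes tested. TRIB3, at −0.34 ± 0.14, and CEBPB, at 0.29 ± 0.14, were not called.

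The levels can also be set side by side across the times. The 24 h MMS level of PPP1R15A, 281 and 283 CPM, was above its 8 h DMSO level of 202 and 249 CPM, while the 24 h DMSO level was lower still. In the same MMS cells DDIT4 at 44.6 and 42.1 CPM was below every DMSO and sorafenib library of either time.

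Sorafenib alone changed no member detectably. At 8 h none of the 10 was called against DMSO, where 0.115% of all genes tested were called higher and 0.28% lower. DESeq2 called none either, and 1 member, CEBPB, had an unadjusted edgeR p under 0.05. Of all 13948 genes tested, DESeq2 called 172, and 1060 had such an edgeR p. CEBPB stood at 33.6 and 34.7 CPM with sorafenib and at 42.1 and 47.3 CPM in DMSO, groups that did not overlap (log2 change −0.37 ± 0.14, edgeR adjusted p = 0.481). DDIT4, at 71.6 and 54.4 CPM, differed from DMSO by −0.30 ± 0.21, and its lower DMSO library lay at 72.2 CPM. DDIT3, at 16.3 and 20.9 CPM, differed by 0.23 ± 0.18 with overlapping groups.

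At 24 h none was called with sorafenib, where 0.244% of all genes tested were called higher and 0.574% lower, and neither DESeq2 nor an unadjusted edgeR p under 0.05 picked any. Over all genes tested DESeq2 called 290, and 1260 had such an edgeR p. PPP1R15A showed the lowest change, −0.23 ± 0.20, at 105 and 125 CPM against 116 and 153 CPM. ATF3 showed the highest, 0.20 ± 0.23, at 9.85 and 9.15 CPM against 7.21 and 9.26 CPM. The sorafenib effect did not differ detectably between the times in any member, and 0% of all genes tested were called in either direction by edgeR, with 0 members at an unadjusted p under 0.05 and 0 called by DESeq2. Such an unadjusted p was found for 150 of all genes tested. The differences ran from −0.25 ± 0.26 for DDIT3 to 0.24 ± 0.20 for CEBPB.

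The combination gave an 8 h picture like that of MMS. All 10 members were called higher than DMSO, where 12.5% of all genes tested were called higher and 11.8% lower, with a median log2 change of 1.98 against 0.027 over all genes tested. These comparisons share their DMSO libraries with those of MMS alone. CHAC1 had the largest change, 3.56 ± 0.33, with ATF3 at 3.46 ± 0.23, SESN2 at 3.09 ± 0.12 and TRIB3 at 2.71 ± 0.14. DDIT3 followed at 2.33 ± 0.18, DDIT4 at 1.62 ± 0.21 and CEBPG and PPP1R15A at 1.58, with SE of 0.10 and 0.20. ATF4 at 1.26 ± 0.17 and CEBPB at 1.21 ± 0.14 changed least.

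At 24 h, 3 members were called higher in the combination than in DMSO, where 16.2% of all genes tested were, and 2 were called lower, where 17.2% were. The median was 0.23 over the members and 0.0081 over all genes tested. DDIT4 stood at 30.8 and 22.1 CPM against 203 and 250 CPM in DMSO, 8.86-fold lower (log2 change −3.15 ± 0.22, edgeR adjusted p = 3.79e-06). CEBPB stood at 33.7 and 37.2 CPM against 51.7 and 60.0 CPM (−0.71 ± 0.14, edgeR adjusted p = 0.00233). Both combination libraries of each gene lay below both DMSO libraries.

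PPP1R15A, at 211 and 307 CPM in the combination, was 0.90 ± 0.20 above DMSO (edgeR adjusted p = 0.00434). ATF3, at 10.7 and 18.7 CPM, was 0.78 ± 0.23 above (edgeR adjusted p = 0.0204, blocked 0.00185), and its 2 libraries were far from each other. Without combination replicate 2 the ATF3 change was 0.35 (edgeR adjusted p = 0.225), and without DMSO replicate 1 the call was lost as well (0.134). CEBPG, at 71.4 and 83.7 CPM, was 0.28 ± 0.10 above (edgeR adjusted p = 0.0433, blocked 0.0113). In the unblocked fit that call was lost without either DMSO library or without combination replicate 2.

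ATF4 was at 174 CPM in both combination libraries (0.18 ± 0.17 against DMSO), and TRIB3 at 43.4 and 52.0 CPM (0.28 ± 0.14). Neither was called. DDIT3, at 16.9 and 25.2 CPM, was not called (0.32 ± 0.18, edgeR adjusted p = 0.202), but without combination replicate 1 its change was 0.60 with an adjusted p of 0.0258. CHAC1 lay at 6.86 and 9.35 CPM and SESN2 at 14.3 and 16.5 CPM, both overlapping their DMSO libraries.

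The combination effect was lower at 24 h than at 8 h in 9 members by the direct test, where 6.32% of all genes tested were called lower and 4.49% higher. The median difference was −2.22, against −0.033 over all genes tested. It reached −4.77 ± 0.30 for DDIT4, −3.71 ± 0.47 for CHAC1, −3.02 ± 0.17 for SESN2 and −2.68 ± 0.32 for ATF3. TRIB3 differed by −2.43 ± 0.19, DDIT3 by −2.01 ± 0.26, CEBPB by −1.91 ± 0.20 and CEBPG by −1.29 ± 0.14. ATF4 differed by −1.09 ± 0.24 (edgeR adjusted p = 0.0165, blocked 3.96e-06). In the unblocked fit 5 single libraries could each end that call when left out. They were DMSO 24 h replicate 1, DMSO 8 h replicate 2, combination 8 h replicate 1 and both combination 24 h libraries. PPP1R15A differed by −0.68 ± 0.27 (edgeR adjusted p = 0.134, blocked 0.00150), so all 10 were called with the block. It called 4016 of 13948 genes tested in either direction, against 1507 without it.

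Set against MMS alone, the sorafenib pre-incubation gave no call among the members at 8 h, where 0.222% of all genes tested were called higher and 0.401% lower. DESeq2 called no member and 323 of all genes tested. An unadjusted edgeR p under 0.05 was found for 1921 of 13948 genes tested and for 1 member. That was TRIB3, at 346 and 271 CPM in the combination and 246 and 243 CPM with MMS (0.28 ± 0.13, edgeR adjusted p = 0.361). DDIT4, at 289 and 199 CPM against 197 and 177 CPM, differed by 0.33 ± 0.20. PPP1R15A, at 637 and 716 CPM against 743 and 831 CPM, differed by −0.26 ± 0.19. The groups did not overlap in these 3 genes. With 2 libraries a group such separation can arise without a change, and its share over all genes was not counted.

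At 24 h the same comparison gave 0 calls among the members, where 0.0143% of all genes tested were called higher and 0.108% lower. Of the members 3 had an unadjusted edgeR p under 0.05, as did 689 of 13948 genes tested. With the replicate block 2 members were called lower, where 283 of 13948 genes tested were called in either direction. DESeq2 called 1 member lower and 86 of all genes tested in either direction. DDIT4 was at 30.8 and 22.1 CPM in the combination against 44.6 and 42.1 CPM with MMS, a change of −0.71 ± 0.21 (edgeR adjusted p = 0.515, blocked 0.00787). CEBPB was at 33.7 and 37.2 CPM against 47.2 and 56.1 CPM, a change of −0.54 ± 0.14 (edgeR adjusted p = 0.311, blocked 0.0162), and DESeq2 called it as well (adjusted p = 0.0473). Neither gene's groups overlapped. ATF3 differed by −0.48 ± 0.22 and CHAC1 by −0.51 ± 0.33, with overlapping groups and no call.

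**Figure D3:**
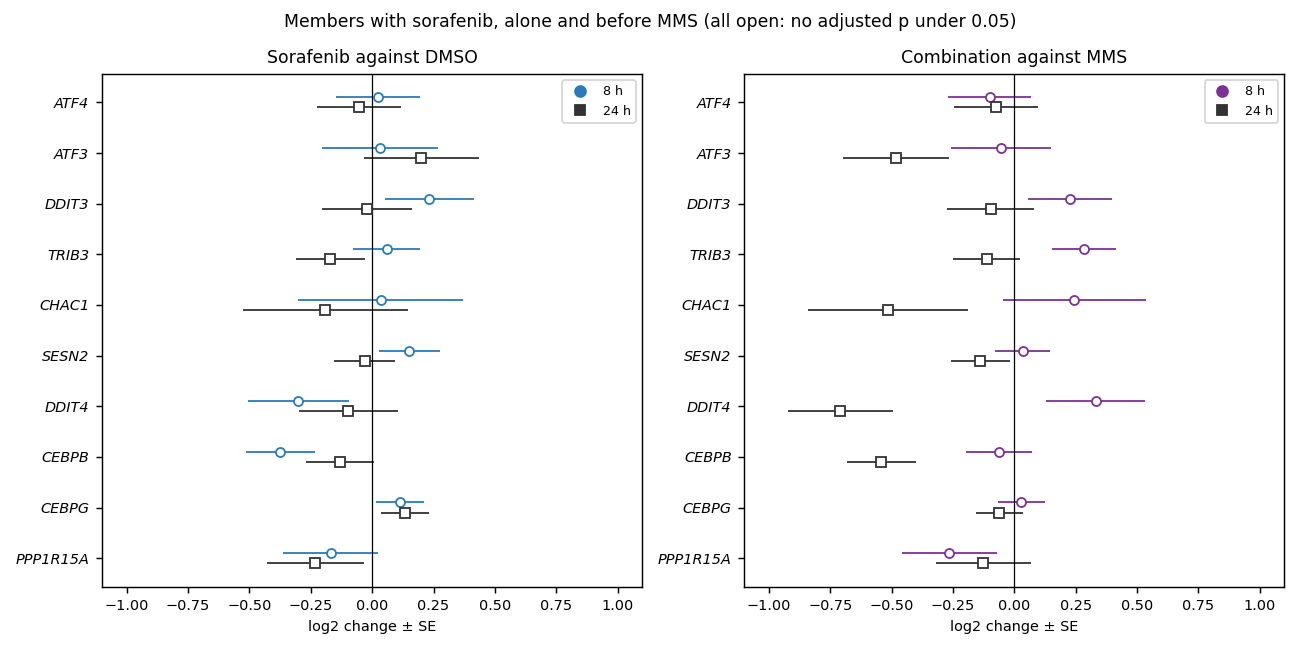
log2 change of each member with sorafenib, against DMSO (left) and after MMS, as the combination against MMS (right), at 8 h (coloured circles) and 24 h (dark squares), with bars of 1 SE from edgeR. No symbol is filled because no adjusted p was under 0.05 without the block. The lowest value is DDIT4 at −0.71 in the 24 h combination.

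Whether sorafenib altered the MMS effect was tested as an interaction. At 8 h no member was called and 0% of all genes tested were, in either direction. DESeq2 called no member, and 1 member had an unadjusted edgeR p under 0.05: DDIT4 at 0.63 ± 0.29. Of all genes tested, DESeq2 called 1, and 505 had such an edgeR p. At 24 h no member was called and again 0% of all genes tested were, with no member at an unadjusted p under 0.05 and none called by DESeq2. Over all genes tested, 304 had such an edgeR p and DESeq2 called 1. The 24 h estimates were −0.68 ± 0.32 for ATF3, −0.61 ± 0.29 for DDIT4 and −0.41 ± 0.20 for CEBPB. The title beginnings did not match here: in the 24 h comparison of the combination with MMS, all 10 members were below 0 in replicate 1 and 4 of 10 in replicate 2.

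The gene lists, like the members, were chosen with earlier results of these data known. In this and the next 5 lists the MMS counts stand beside 14.5% of all genes tested called higher and 12% lower at 8 h, and 15.2% and 16.3% at 24 h. Those shares are without the replicate block. With it, 6036 of 13948 genes tested were called in either direction at 8 h and 6730 at 24 h, against 3694 and 4394 without it. Of the 14 paralogs of the members tested, 4 were called higher and 2 lower with MMS at 8 h, and the same counts were found at 24 h, with the share called lower near that of all genes. With the replicate block 5 were called higher and 4 lower at 8 h, and 4 higher and 4 lower at 24 h. The medians were 0.19 and 0.014. TRIB2, a relative of TRIB3, fell by 2.65 on the log2 scale at 8 h and was at −1.70 at 24 h, at 28.1 ± 0.0575 CPM against 88.3 ± 6.998 CPM in DMSO (SD, n = 2). TRIB1 was at −0.05 ± 0.26 and −0.27 ± 0.26, and it was called lower at 24 h with the block (blocked edgeR adjusted p = 0.0342) and not without it (0.456). JDP2, the closest relative of ATF3, rose by 1.99 ± 0.27 at 8 h (edgeR adjusted p = 0.000215) and was at 0.03 ± 0.29 at 24 h.

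SESN1, a sestrin like SESN2, was at 0.16 ± 0.14 at 8 h and −0.0032 ± 0.14 at 24 h, and it was not called at either time. SESN3 gave 0.20 ± 0.44 and −1.23 ± 0.44, and DDIT4L, the relative of DDIT4, gave 1.25 ± 0.60 and 0.56 ± 0.63, all without a call in the unblocked fit. With the block SESN3 was called lower at 24 h (blocked edgeR adjusted p = 0.00272, unblocked 0.0519) and DDIT4L higher at 8 h (blocked 0.000240, unblocked 0.155). PPP1R15B, the constitutive partner of protein phosphatase 1 for eIF2, rose by 0.34 ± 0.07 and 0.28 ± 0.07. ATF5 (0.54 ± 0.11) and CHAC2 (0.72 ± 0.15) were called higher at 24 h and not at 8 h. BATF3 was called higher at both times. CEBPA was called higher (2.29 ± 0.72) and BATF lower (−0.96 ± 0.31) at 8 h, and CEBPD was lower at 24 h (−0.96 ± 0.31).

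**Figure D4:**
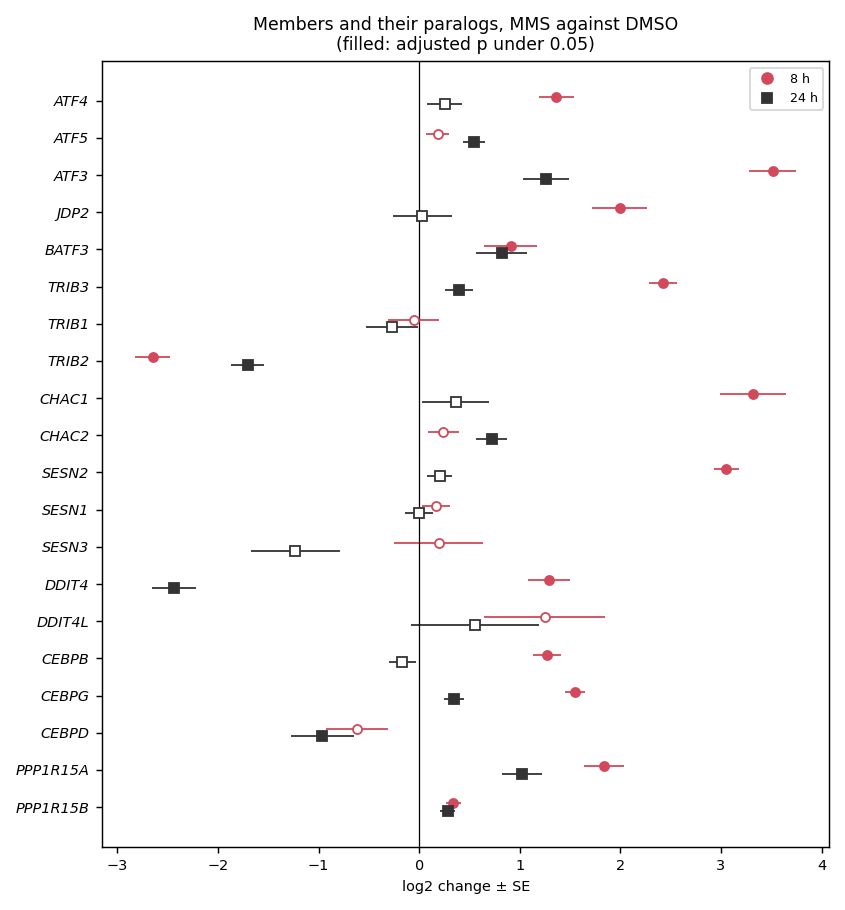
log2 change with MMS against DMSO at 8 h (circles) and 24 h (squares) for members and the paralogs listed beneath them, with bars of 1 SE from edgeR. The member DDIT3 and the paralogs BATF, BATF2 and CEBPA are not drawn. Filled symbols have an adjusted p under 0.05. SESN2 at 3.05 stands beside SESN1 at 0.16, and TRIB3 at 2.42 beside TRIB2 at −2.65.

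Of 20 genes of the machinery upstream of ATF4, for eIF2 kinases, eIF2 and eIF2B subunits and the eIF2 phosphatase, 5 were called higher and 3 lower with MMS at each time, with medians of 0.027 and 0.11. The share called lower lay near that of all genes tested. With the block 6 were called higher and 4 lower at each time. At 8 h EIF2AK4, the amino acid sensing kinase GCN2, fell by 0.78 on the log2 scale, while DNAJC3, an inhibitor of eIF2 kinases, rose by 0.63 ± 0.10 and the eIF2 beta subunit EIF2S2 by 0.51 ± 0.08. At 24 h EIF2AK3, the endoplasmic reticulum kinase PERK, was lower by 1.03 ± 0.12 (log2 change −1.03, edgeR adjusted p = 0.000119). PPP1CB, a catalytic subunit of protein phosphatase 1, was at −0.55 ± 0.08, and EIF2S1, which carries the phosphorylation site, at 0.49 ± 0.08.

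Known ATF4 target genes were mostly higher at 8 h. Of 39 tested, 30 were called higher and none lower, with a median of 0.70, and 35 were higher with the block. ADM2 rose by 3.38 on the log2 scale, from 4.22 ± 0.74 to 42.9 ± 3.20 CPM, GADD45A by 2.20, and the alanine aminotransferase GPT2 by 1.21. At 24 h 17 were called higher and 5 lower, with a median of 0.26, and with the block 22 and 6. The amino acid transporter subunit SLC3A2 was higher (1.15, from 189 ± 13.1 to 435 ± 37.4 CPM), whereas VEGFA (−1.53) and the glycine transporter SLC6A9 (−1.37) were lower than in DMSO. The DMSO level of this list also differed between the times. From 8 h to 24 h none was called higher and 6 lower (median −0.38), where 0.366% and 0.294% of all genes tested were. With the block 2 were higher and 25 lower, where 1902 of 13948 genes tested were called in either direction. The 24 h changes thus rest on the control level as well.

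Of 8 genes tied to CHOP in oxidative folding and cell death, 5 were called higher and none lower at 8 h, and 1 higher and 3 lower at 24 h. With the block, 6 were called higher and 2 lower at 8 h, and 1 and 3 at 24 h. ERO1LB rose by 1.37 at 8 h, PMAIP1 by 0.62 and BBC3 by 0.97. At 24 h the death receptor gene TNFRSF10B was at −0.48 and the oxidase gene ERO1L at −0.59, while the related receptor gene TNFRSF10A was at 0.55.

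Of 20 genes of the other arms of the unfolded protein response, 14 were called higher and none lower at 8 h, and none higher and 9 lower at 24 h, with medians of 0.54 and −0.33. With the block 16 were called higher and none lower at 8 h, and 1 higher and 12 lower at 24 h. The chaperone HSPA5 went from 885 ± 57.0 to 3015 ± 172 CPM at 8 h (log2 change 1.804) and was at 575 ± 5.86 against 1008 ± 6.52 CPM at 24 h (−0.86). HERPUD1 rose by 2.01 and XBP1 by 1.65 at 8 h, and HSP90B1 (−0.55) and HYOU1 (−0.50) were lower at 24 h.

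Around mTORC1, which SESN2 and DDIT4 both restrain, 4 of 21 genes were called higher and 2 lower with MMS at each time, with medians of 0.15 and 0.050, counts near or below the shares of all genes tested. With the block 6 were called higher and 3 lower at 8 h, and 6 and 5 at 24 h. TXNIP rose by 1.04 and RPS6KB1 by 0.55 at 8 h, when RPTOR, the scaffold that defines the complex, was at −0.75. At 24 h EIF4EBP1, a translation inhibitor that mTORC1 inactivates, was at 0.70, GATSL3 at −1.14 and the GATOR2 subunit WDR59 at −0.57.

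The order of the groups set DDIT4 apart from the others by description. In ATF4, ATF3, DDIT3, TRIB3, CHAC1, SESN2, CEBPB, CEBPG and PPP1R15A the 2 highest groups were the 8 h MMS and combination groups, and their libraries overlapped each other in ATF4, ATF3, SESN2 and CEBPB. In DDIT4 the 8 h combination, 24 h DMSO, 24 h sorafenib and 8 h MMS groups followed in that order, each overlapping the next, and the 24 h combination came last. Over the 8 group means of log2 CPM, the profile of DDIT4 correlated with those of the other members at Pearson's r of 0.118 to 0.709, and the closest pair was CHAC1 and SESN2 at 0.996. These points share libraries and are given as a description.

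Among 11512 genes with a mean count of at least 50, the profiles closest to ATF4 over the 8 group means were those of TRIM36 (r = 0.997), ZNF200, MAP1LC3B, HOXD1 and LYSMD3. Closest to DDIT3 were CCDC9 (r = 0.995), ADM2, HMOX1, ATF4 (r = 0.993) and DNAJB1. Among those closest to DDIT4 were PNMA1 (r = 0.984), LOC341056, APLF and C12orf23. The group means of HMOX1 ran from 12.2 to 160.0 CPM and those of PNMA1 from 112 to 137 CPM, so likeness of shape does not carry likeness of size.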

How the data were processed

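The deposited values were raw read counts per gene. Per the submitters' processing notes the authors used CASAVA 1.8.2, TopHat2 2.0.8b, HTSeq and hg19. The annotation, the HTSeq version and mode and the strand setting are not given in the sources used here. The 5 counter rows were left out (29.5% to 31.5% of reads were multiply aligned per library). Counts from 16 libraries, 2 in each of 8 groups, were fitted in edgeR 4.0.16 (R 4.3.3, limma 3.58.1) by quasi-likelihood with TMM factors, filterByExpr, 1 mean per group and Benjamini-Hochberg adjustment over 13948 genes at 0.05, in 14 comparisons. SE is the log2 change over the square root of F. CPM in the text uses summed gene counts without TMM factors.

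Titles begin in 2 ways, once per group. Whether these pair libraries was checked: the deviations from group means correlated at 0.462 to 0.753 over 28 pairs of groups (median 0.662), so this block was an alternative. Its results stand beside the members' and paralogs' values where it changed a stated call. They also stand beside named member calls that leaving out a library ended, and beside the list counts. The main fit ignores this likeness of libraries. Its common biological coefficient of variation was 0.136, against 0.063 with the block. Leaving out libraries was tried only without the block. The labels do not say what the beginning marks. Other alternatives were DESeq2 1.42.0, RLE size factors, library totals alone (chosen after seeing the data), 2 other filters, the compared libraries alone, and leaving out each library.

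The members and gene lists were chosen with earlier results of these data known. Named besides the members and their paralogs are, per list, up to 3 called genes with the smallest p for MMS at each time, and the 5 closest profiles for ATF4, DDIT3 and DDIT4, of which 1 is not reported here. Promoter windows and overlapping genes came from RefSeq and GENCODE annotations of GRCh38, a build other than that of the counts, and were used for names and sequence only. Processed pseudogenes of ATF4 (ATF4P1 to ATF4P4) are annotated and could take some of its reads. In data simulated for MMS against DMSO at 8 h over 13806 genes, the test recovered 32.8% of 1.5-fold, 80.6% of 2-fold and 97.0% of 4-fold changes with 4 false calls.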

Additional observations from a re-analysis of the deposited data

Results flagged for a closer look

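The MMS effect on the members differed between 24 h and 8 h by edgeR's test of the difference itself (Benjamini-Hochberg adjusted p under 0.05) in 9 of 10 genes. The differences in log2 change were −1.11 for ATF4, −2.26 for ATF3, −1.69 for DDIT3, −2.03 for TRIB3, −2.96 for CHAC1, −2.85 for SESN2, −3.73 for DDIT4, −1.43 for CEBPB and −1.20 for CEBPG. The combination effect also differed between the times, in 9 genes, by −1.09 for ATF4, −2.68 for ATF3, −2.01 for DDIT3, −2.43 for TRIB3, −3.71 for CHAC1, −3.02 for SESN2, −4.77 for DDIT4, −1.91 for CEBPB and −1.29 for CEBPG. Both sets use the same DMSO libraries. For DDIT4 the DMSO level itself was higher at 24 h (203 and 250 CPM) than at 8 h (84.8 and 72.2 CPM).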

How the results depend on the processing

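With 2 libraries a group, small changes at 24 h lie near the limit of the test. This check counted 81 member values, a part of those from 10 members in 14 comparisons. Of these 81, none changed sign under any alternative, and RLE size factors, library totals alone and a mean count of at least 50 changed no call. Values outside the 81 could change sign: DDIT3 in the 8 h interaction was at −0.0065, and at 0.0019 with the block. Leaving out 1 library at a time ended 23 calls and gained 1 over 428 retests of these values, in which a value can count more than once. Over those leave-outs, the members called higher numbered 2 to 3 for MMS at 24 h, 1 to 4 for the combination against DMSO at 24 h, and 0 to 1 for DMSO over time. With the compared libraries alone, 1 member was called higher for the combination at 24 h and 0 for DMSO over time, and the edgeR adjusted p of CEBPG was 0.0551 with MMS at 24 h, since fewer samples entered the fit. DESeq2 called 1 member lower for the combination against MMS at 24 h and 2 lower for DMSO over time, and no low-count filter gave 1 lower there. With the replicate block, 2 were lower in the combination against MMS at 24 h and 2 in DMSO over time, and 8 member values were gained as calls in all. Over all genes tested in these 2 comparisons, DESeq2 called 86 and 489 in either direction and the block 283 and 1902. The largest shift of the median of all genes under another scaling was 0.091 on the log2 scale.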

Other observations

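Other factors with basic leucine zippers, the class to which ATF4, CHOP and the C/EBP proteins belong, gave calls in both directions. Of 30 tested, 11 were called higher and 2 lower with MMS at 8 h, where 14.5% and 12% of all genes tested were. At 24 h 4 were called higher and 10 lower, where 15.2% and 16.3% of all genes were. With the replicate block the counts were 15 and 3 at 8 h and 6 and 11 at 24 h. The block called 6036 and 6730 of 13948 genes tested in either direction at these times. MAFG rose by 1.03 ± 0.10 at 8 h, and NFE2L3 was lower at both times (−1.04 ± 0.09 and −1.104 ± 0.09). CREB3L1 (−1.20 ± 0.17) and CREB3L2 (−1.003 ± 0.15) were lower at 24 h.

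The libraries with the 2 title beginnings differed in the level of single members. ATF4 and DDIT4 were higher in replicate 1 than in replicate 2 in 7 of 8 groups, and PPP1R15A was higher in replicate 1 in 0 of 8 groups.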
